A study of Mus musculus with 39 samples.

Results

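The kinesin family was taken as all genes whose name in the scanner files is Kif followed by a number and, where present, a letter from a to c, which gave 37 genes measured by 61 probes, of 22328 named genes and 55681 probes on the array. Kinesins are motor proteins that walk along or take apart microtubules using ATP. Some members build and move the spindle in meiosis and mitosis, others act at the midzone where a cell divides, and the rest carry vesicles and organelles or serve cilia and centrioles. The oocyte stores transcripts for the meiotic divisions and the first cleavages, most of which are degraded while the embryonic genome is switched on, so that the messages for these motors come from the mother at first and from the embryo later. Kifc1, Kifc2, Kifc3, Kifap3 and the pseudogene Kif4-ps were on the array but their names are outside the rule, and Kif4 may share signal with Kif4-ps, so its values are uncertain.

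The arrays held RNA from mouse oocytes and preimplantation embryos, 100 oocytes or embryos per array, with 3 independent samples in each of 13 conditions. The control series ran through germinal vesicle (GV) oocytes, metaphase II (MII) oocytes, 1-cell, 2-cell, 4-cell and 8-cell embryos, morulae and blastocysts. Treated embryos came from the same cross, B6D2F1 females of 8 to 9 weeks inseminated in vitro with sperm of ICR males of 15 to 20 weeks, and no animal carried an engineered allele. They were held in 10 µM T247, an inhibitor directed at histone deacetylase 3, or in 10 µM MGCD0103, which acts mainly on class I histone deacetylases, for 6 h starting 4 h after insemination. Collection was 12 h after insemination for the 1-cell stage, 24 h for the 2-cell stage and 48 h for the 4-cell stage with T247. MGCD0103 embryos were taken at the first 2 of these times. The paper reports that embryos held in MGCD0103 did not reach the last of these stages, and proposes that T247 may delay development. Treated and control embryos taken at the same hour may therefore differ in developmental progress. The part of such progress in the differences below was not tested. The controls were untreated embryos of the matching stages. Each array shows the average of its pool, so less RNA per embryo and fewer embryos expressing a gene cannot be told apart.

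The scanner software flagged 61.8% to 76.7% of the signals per array as positive and significant and 43.7% to 57.4% as well above background, with 0 saturated. Oocyte markers fell from a summed log2 level of 20.08 to 20.14 in GV oocytes to 8.72 to 8.96 in blastocysts, markers of the 2-cell embryo were highest at the 2-cell stage, and trophectoderm markers were highest in blastocysts, as the labels state. The 3 inner cell mass markers did not set blastocysts apart. They summed to 12.8 to 14.0 in blastocysts, 14.0 to 14.8 in morulae and 13.3 to 13.5 in GV oocytes. Of 8 markers of cumulus and granulosa cells, which surround the oocyte, 5 were well above background on 0 control arrays at the 2-cell stage, and their summed log2 level lay between 7.04 and 8.58 in controls, 7.61 and 7.67 with T247, and 8.31 and 8.38 with MGCD0103. Earlier control stages stood higher, with highest sums of 12.02 in GV oocytes, 11.95 in MII oocytes and 11.10 at the 1-cell stage. There, 5, 2 and 3 of the 8 markers were well above background on all 3 arrays. The part of such cells in the changes between stages was not tested. Control replicate 1 at the 2-cell stage stood apart from the other 2, with a lowest correlation to them of 0.951 across genes, against at least 0.985 within every other condition. Values at the 2-cell stage are therefore also given without it. Control arrays shared 3 slides, with 1 array of every stage on each, while treated embryos were on 3 other slides, so treatment and slide cannot be told apart. The treatment comparisons at a stage share their 3 control arrays.

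Levels below are log2 signals after smooth quantile normalization, and one log2 unit is a doubling. LFC is the difference of 2 group means on that scale, given ± its standard error from limma, and the adjusted p comes from limma with Benjamini-Hochberg adjustment over all genes tested. A gene was called changed at an absolute LFC of at least 1 and an adjusted p under 0.05. Of the 37 kinesins, 23 were well above background on all 3 arrays of all 13 conditions, and 0 were below background throughout. The heat map of group means shows each gene against its own average, because signals of different probes were not compared with each other.

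**Figure D1:**
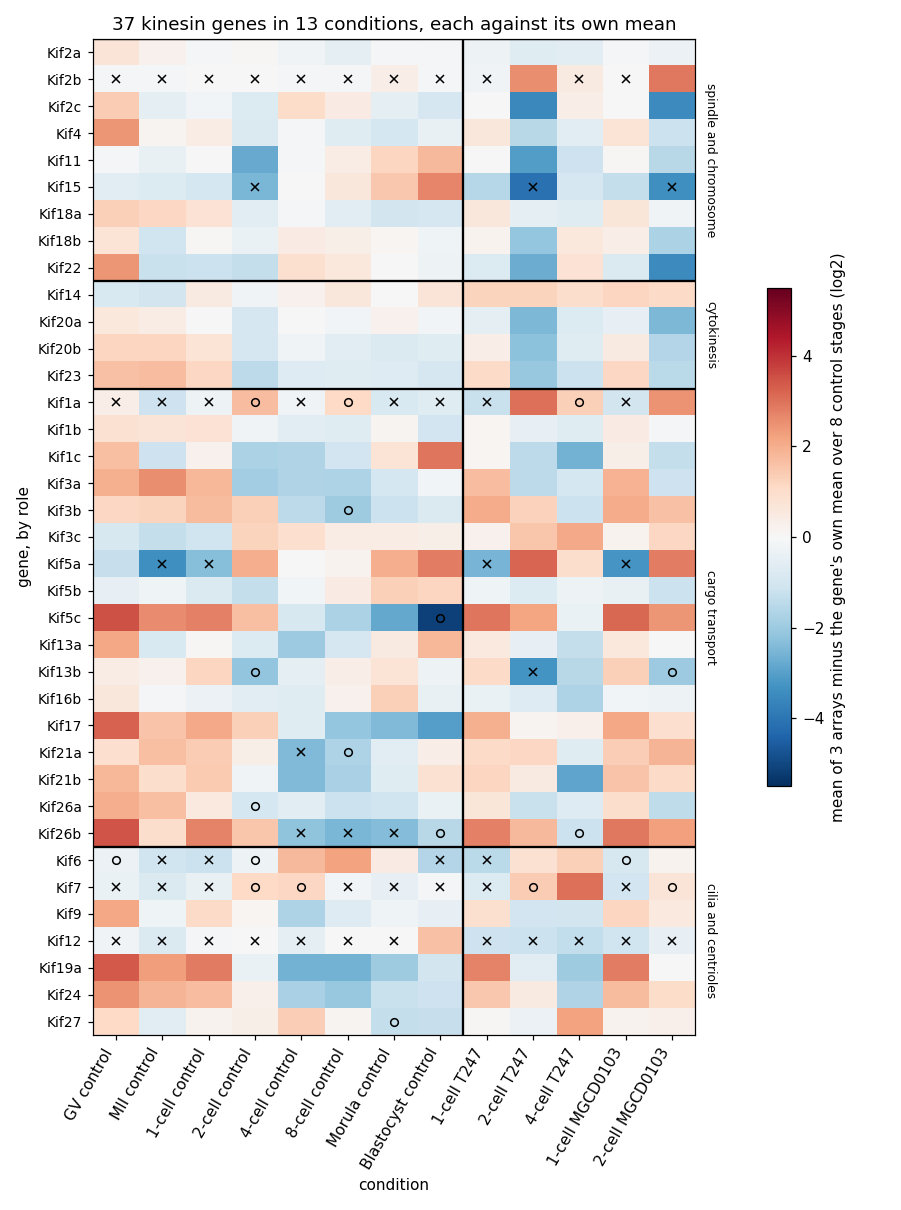
Heat map of the 37 kinesins (rows, by role) in 13 conditions (columns, 3 arrays each), coloured by the mean log2 signal minus the gene's own mean over the 8 control stages. A cross marks a group with no array well above background and an open circle a group with 1 or 2 such arrays. Kif22 is highest in GV oocytes on this scale, but in 4-cell embryos among controls when arrays were scaled to their 75th percentile. Kif2c lies lower in 2-cell T247 and MGCD0103 embryos than in 2-cell controls.

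At the 1-cell stage the kinesins differed little between treated and control embryos. With T247, 1 of 36 tested members was called, and it was higher (2.78%), where 5.9% of all genes tested were called, 5.23% higher and 0.669% lower. With MGCD0103 it was 1 of 35 (2.86%) against 3.7% of all genes, 3.24% higher and 0.458% lower. The gene was Kif3c in both, a heavy chain of heterotrimeric kinesin-2 that pairs with Kif3a in neurons. Its log2 level was 6.23, 7.02 and 6.74 in the 3 controls, 8.08, 7.76 and 8.05 with T247, and 7.92, 7.83 and 8.06 with MGCD0103. All 6 treated arrays lay above all 3 controls. The LFC was 1.30 ± 0.29 with T247 (adjusted p = 0.001786) and 1.27 with MGCD0103 (adjusted p = 0.003533). None of the 12 spindle and cytokinesis members tested at this stage was called with either compound. Median LFC over the members was −0.13 with T247 and 0.11 with MGCD0103, beside −0.02 and 0.09 over all genes tested. Of all called genes, 88.6% were higher with T247 and 87.6% with MGCD0103, and 79.9% and 69.9% where arrays were scaled to their 75th percentile instead. That scaling moved the MGCD0103 median of all genes from 0.09 to −0.08 and that of the members to −0.07.

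One cleavage later, of the 13 spindle and cytokinesis motors, 6 were called lower and 2 higher with T247, and 4 lower and 3 higher with MGCD0103. With T247 at the 2-cell stage, 13 of 37 members were called (35.1%), 4 higher and 9 lower, where 24.8% of all genes were called, 10.1% higher and 14.7% lower. With MGCD0103, 9 of 37 (24.3%) were called, 5 higher and 4 lower, where the share of all genes was 27.6%, 13.4% higher and 14.2% lower. Median LFC over the members was −0.06 with T247 and 0.29 with MGCD0103, beside −0.22 and 0.08 over all genes tested. The MGCD0103 share stood near that of the array. Of all called genes, 40.6% were higher with T247, or 57.2% under 75th percentile scaling, 28.4% with normexp background correction and 23% in the authors' matrix. For MGCD0103 these shares were 48.5%, 53.8%, 33.3% and 34.2%. The 75th percentile scaling moved the T247 median of all genes to −0.02 and that of the members to 0.13. The roles differed in their medians. With T247, the 9 spindle and chromosome motors had a median LFC of −0.72 with 4 lower and 1 higher, the 4 cytokinesis motors −0.98 with 2 lower and 1 higher, the 17 cargo motors 0.31 with 2 lower and 2 higher, and the 7 motors of cilia and centrioles −0.21 with 1 lower. With MGCD0103 the medians were −0.40, −0.37, 0.45 and 0.35 in the same order, with 3, 1, 0 and 0 members lower and 2, 1, 2 and 0 higher.

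Kif2c, a kinesin-13 that takes apart microtubules at centromeres and corrects faulty chromosome attachments, had the largest fall of the family. Its control levels at the 2-cell stage were 9.33, 10.31 and 10.39, against 7.34, 7.08 and 7.26 with T247 and 7.37, 7.25 and 7.22 with MGCD0103. Every treated array lay below every control. The LFC was −2.79 ± 0.17 with T247 (adjusted p = 2.703e-13), a 6.91-fold lower signal, and −2.73 ± 0.17 with MGCD0103 (adjusted p = 2.02e-13), 6.65-fold lower. A second Kif2c probe gave −2.40 and −2.55. At the 1-cell stage the same gene stood at 10.86, 10.37 and 10.64 in controls and between 10.73 and 10.85 on all 6 treated arrays, so its groups overlapped there.

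Kif18b, which works with Kif2c at the growing ends of astral microtubules, followed the same order. Controls measured 9.61, 10.11 and 10.10, T247 arrays 8.23, 8.12 and 8.17, and MGCD0103 arrays 8.70, 8.55 and 8.50. No treated array reached a control array. The fall was −1.77 ± 0.13 with T247 (adjusted p = 3.652e-12) and −1.36 ± 0.13 with MGCD0103 (adjusted p = 4.756e-10). Kif22, a chromokinesin that pushes chromosome arms away from the poles, stood at 11.81, 12.71 and 12.57 in controls, 11.10, 10.94 and 10.85 with T247, and 10.11, 10.16 and 10.27 with MGCD0103. The 3 groups did not overlap and MGCD0103 was the lowest. The LFC was −1.40 ± 0.17 (adjusted p = 7.162e-08) with T247 and −2.19 ± 0.17 (adjusted p = 1.348e-11) with MGCD0103.

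Kif20a, which brings the chromosomal passenger complex to the midzone, was tightly measured in controls at 12.79, 12.81 and 12.79. It stood at 11.21, 11.32 and 11.30 with T247 and at 11.35, 11.30 and 11.11 with MGCD0103. It was lower with either compound, with an LFC of −1.52 ± 0.10 (adjusted p = 2.084e-12) for T247 and −1.55 ± 0.10 (adjusted p = 8.988e-13) for MGCD0103. Kif20b, a related motor of late cytokinesis, measured 12.14, 11.73 and 11.71 in controls, 10.51, 10.702 and 10.44 with T247, and 11.38, 11.23 and 10.95 with MGCD0103. Its arrays did not overlap between any pair of groups. The T247 difference of −1.31 ± 0.11 was called (adjusted p = 1.078e-10), while the MGCD0103 difference of −0.67 passed the p threshold (adjusted p = 1.127e-05) but not the size required. Kif23, the motor subunit of centralspindlin, measured 11.64, 11.42 and 11.41 in controls and 10.87, 10.86 and 10.77 with T247, an LFC of −0.66 (adjusted p = 1.214e-05) that was under the size required. With MGCD0103 it stood at 11.54, 11.45 and 11.29, within reach of the controls (LFC −0.06, adjusted p = 0.6634).

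Other spindle motors gave mixed results. For Kif18a, which dampens chromosome movements at metaphase, the T247 difference was 0.10 (adjusted p = 0.6521). Kif11, the bipolar motor that pushes spindle poles apart, was scattered in controls at 7.12, 4.84 and 5.34, with replicate 1 the highest. With T247 it measured 5.29, 5.67 and 5.42, inside the control range (LFC −0.31, adjusted p = 0.4278). With MGCD0103 it measured 7.25, 6.96 and 6.80, overlapping only the high control (LFC 1.24 ± 0.30, adjusted p = 0.001032), and without that control the LFC was 1.91. Kif15, a partner motor of Kif11 on the spindle, was not well above background on any control or T247 array, so its called T247 difference of −1.58 (adjusted p = 0.0006876) carries no fold. Kif4, a chromokinesin of the midzone, and Kif2a, a kinesin-13 of the spindle poles, each had a T247 LFC of −0.72. Both were lower, as Kif2c was, but under the size required.

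Higher members at the 2-cell stage came from all but the ciliary group. Kif14, a midzone motor that recruits citron kinase, measured 5.67, 5.72 and 5.69 in controls, 7.09, 7.26 and 6.96 with T247, and 7.01, 6.90 and 6.87 with MGCD0103. The 6 treated arrays were all above the controls, by an LFC of 1.41 ± 0.34 (adjusted p = 0.0009956) and 1.23 (adjusted p = 0.003439), although a second Kif14 probe was well above background on no array. Kif2b, another kinesin-13, was not well above background in controls at 1.89, 2.42 and 1.94, and was so on all treated arrays, at 4.72, 4.66 and 4.47 with T247 and 4.66, 4.80 and 5.42 with MGCD0103. Its signal was at least 1.53-fold higher with T247 (adjusted p = 5.193e-07) and at least 1.94-fold higher with MGCD0103 (adjusted p = 6.179e-08), where the bound sets the treated mean against the lowest detectable signal on the control arrays. Measured means of a gene below background lie further apart than such a bound.

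Among cargo motors, Kif21a, a brake on microtubule growth at the cell cortex, was at 7.33, 6.18 and 6.74 in controls, 7.61, 7.56 and 7.52 with T247, and 8.35, 8.34 and 8.24 with MGCD0103. Treated arrays were all higher, and the difference was called for MGCD0103 (1.56 ± 0.23, adjusted p = 1.779e-06) and under the size required for T247 (0.81, adjusted p = 0.004167). Kif5a, a heavy chain of conventional kinesin best known from neurons, rose from 7.26, 8.33 and 8.07 in controls to 8.997, 8.99 and 9.21 with T247 (1.18 ± 0.25, adjusted p = 0.0002182). Kif1a, a carrier of synaptic vesicle precursors, measured 3.65, 6.06 and 5.07 in controls and 6.26, 6.36 and 6.14 with T247. The spread of its controls was wide, 2 of the 3 were well above background, and the LFC of 1.32 ± 0.51 (adjusted p = 0.03314) was still called in 1 of 6 fits that each left out an array. Kif21b, a relative of Kif21a, was called with MGCD0103 (LFC 1.22, adjusted p = 0.000385), at 10.81, 10.76 and 10.68 against 10.71, 8.77 and 9.11, so that it overlapped the high control.

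Kif17, a homodimeric kinesin-2, measured 12.22, 12.68 and 12.76 in controls, 11.45, 11.30 and 11.31 with T247 and 12.07, 12.21 and 12.11 with MGCD0103. T247 arrays lay below all controls (−1.20 ± 0.17, adjusted p = 8.063e-07), and the MGCD0103 difference of −0.42 was under the size required. The 3 Kif17 probes disagreed, with T247 differences of −1.20, −0.90 and 0.74. Kif9, a motor of motile cilia, was called lower with T247 (−1.17 ± 0.38, adjusted p = 0.01129), and Kif13b, a vesicle motor, was called lower (LFC −1.10, adjusted p = 0.006637) with 1 of 3 control and 0 of 3 T247 arrays well above background.

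**Figure D2:**
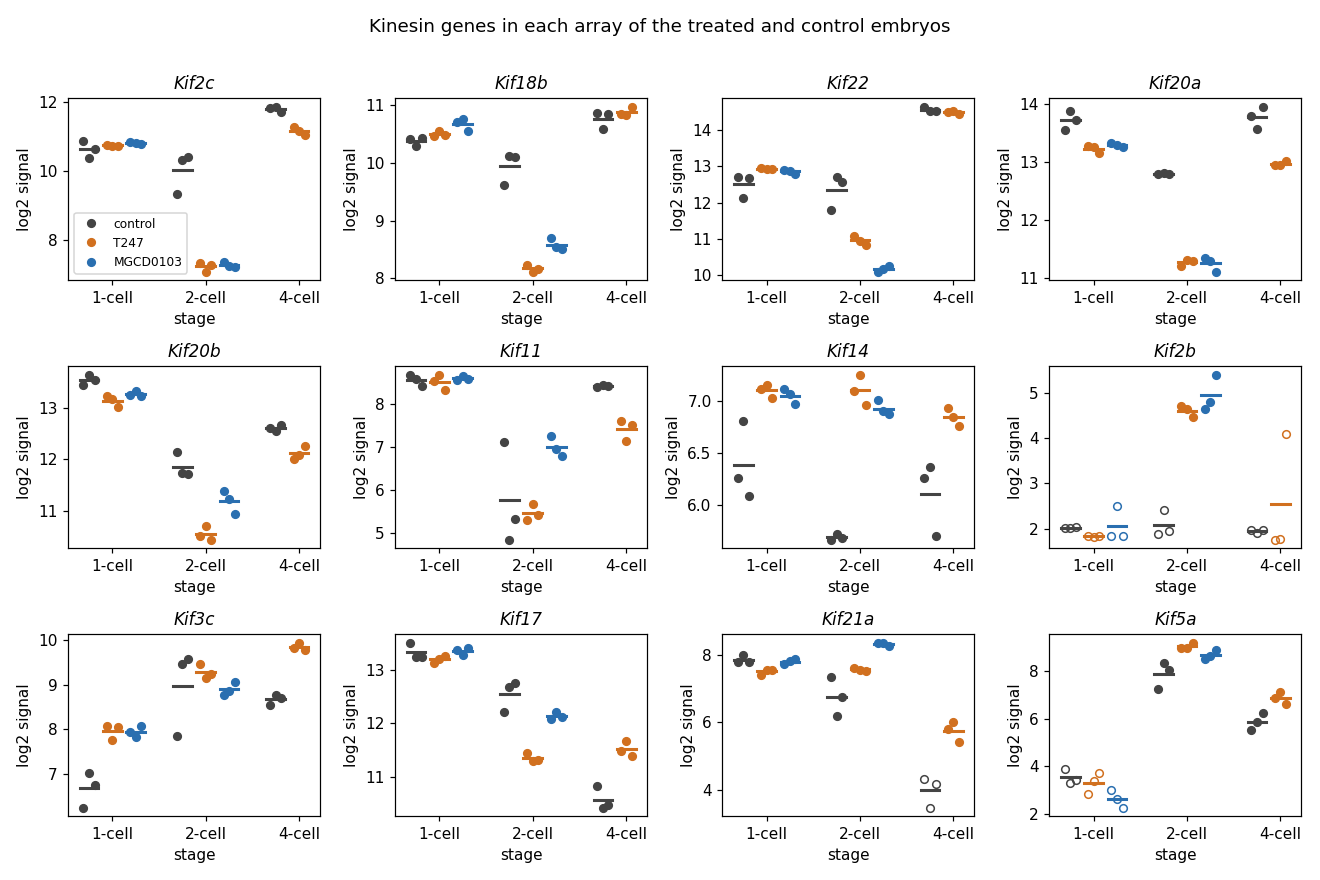
Log2 signal on each array for 12 kinesins in control, T247 and MGCD0103 embryos of 1, 2 and 4 cells. Filled points mark groups well above background on all 3 arrays, open points the others, and bars are means of 3; for Kif2c, Kif18b and Kif20a, all 6 treated 2-cell arrays lie below the 3 controls.

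The remaining members were not called with either compound at the 2-cell stage. Kif13a, which moves receptor vesicles, Kif3a, the shared kinesin-2 chain, and Kif24, which keeps centrioles from forming cilia, had MGCD0103 differences of 0.74, 0.76 and 0.73, each under the size required with an adjusted p of 0.0003055, 0.0002532 and 0.01838. Kif27, a ciliary motor, stood at −0.68 with T247 (adjusted p = 0.007686). Kif5b, the conventional heavy chain found in most cells, stood at 0.55 with T247 (adjusted p = 0.03307). Kif1b, Kif1c, Kif3b, Kif3c, Kif5c, Kif16b, Kif26a, Kif26b, Kif6, Kif7, Kif12 and Kif19a completed the family. A few genes gave another answer from another probe. A dimmer Kif26b probe was called higher with T247 at 1 cell (1.17), 2 cells (1.32) and 4 cells (1.34) and with MGCD0103 at the 2-cell stage (1.37), while the brightest one was not. A dimmer Kif9 probe fell by 1.37 with T247 and by 1.40 with MGCD0103, where the brightest gave −1.17 and 0.45.

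Control replicate 1 moved some of these calls. Without it, T247 gave 11 called members, 4 higher and 7 lower, of which 9 were among the 13 called with it. Kif13b (−0.56), Kif9 (−0.95), Kif5a (0.86) and Kif1a (0.69) were no longer called, and Kif21a (1.1) and Kif21b (1.28) were. MGCD0103 gave 12, made up of the same 9 and of Kif1c (1.06), Kif3a (1.06) and Kif24 (1.30). Kif2c fell by 3.13 and 3.07 on the log2 scale without it. Kif18b fell by 1.94 with T247 and 1.52 with MGCD0103, Kif22 fell by 1.68 and 2.46, and Kif20a fell by 1.53 and 1.55.

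**Figure D3:**
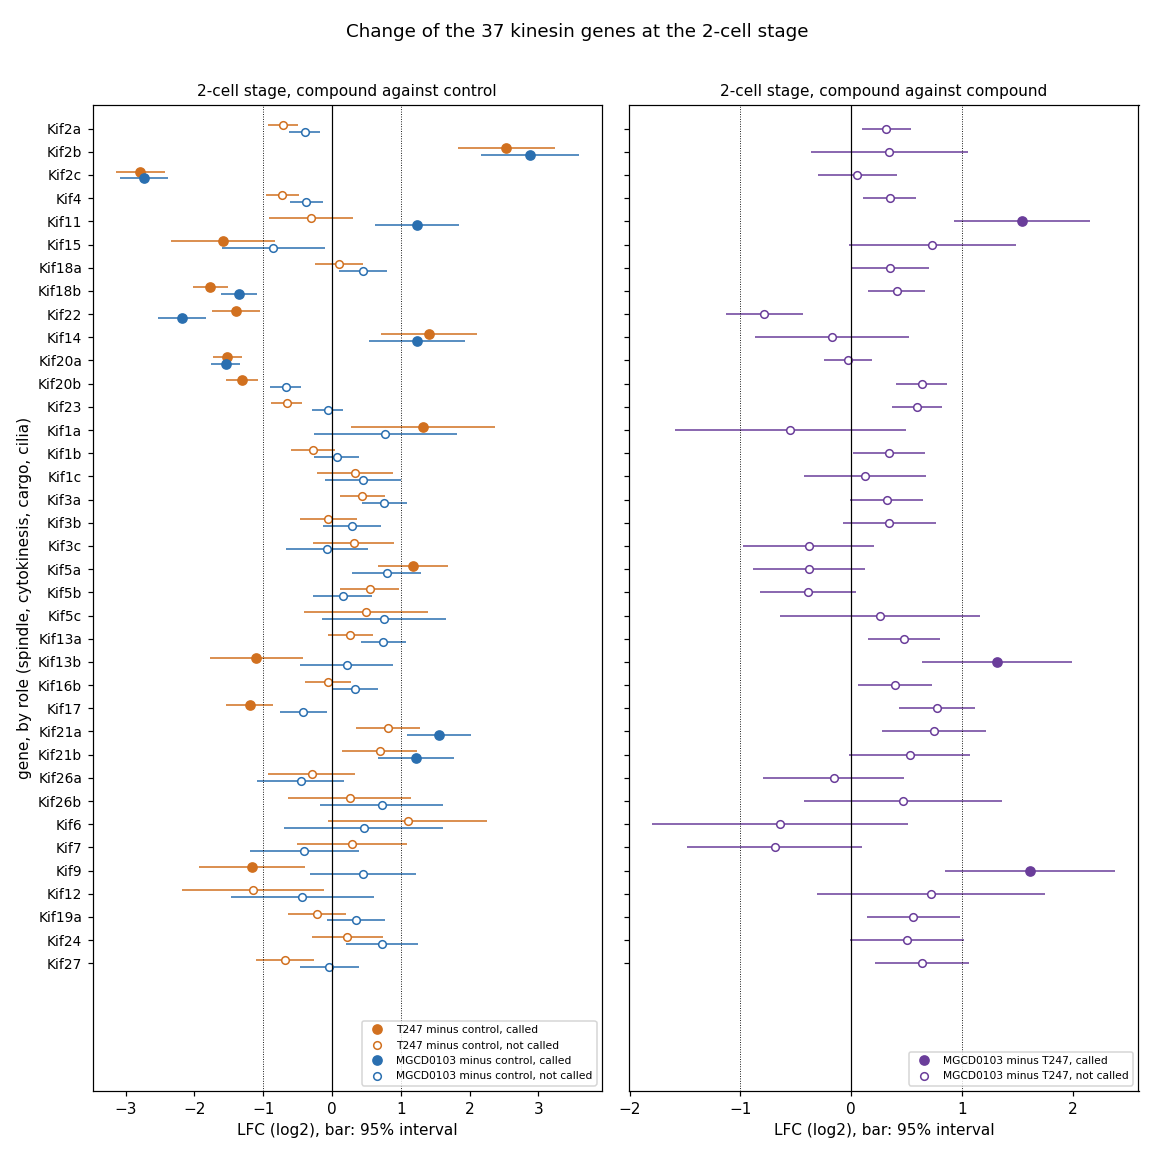
LFC of all 37 kinesins at the 2-cell stage, with 95% intervals from limma and 3 arrays per group. The left panel shows T247 and MGCD0103 against control, and the right panel MGCD0103 minus T247. Filled points are called and dotted lines mark an LFC of 1 in each direction. In the left panel, Kif2c lies farthest to the left for both compounds and Kif2b farthest to the right. The Kif2b controls were not well above background, so its position is no measured size. With each compound Kif2b was called in 5 of 6 fits that each left out an array.

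RefSeq promoter windows of 300 bases around the annotated start, in the mouse build GRCm38.p6, were available for 31 of the 37 members, some with more than 1 window. A gene was counted where any of its windows held the motif. Kif13b, Kif19a, Kif20a, Kif21b, Kif5a and Kif5b had no entry. They were searched on both strands for TTTGAA, the core of the cell cycle homology region that many genes of mitosis carry, and for CCAAT, the box bound by NF-Y. Matches of the motifs can share at most 1 base. TTTGAA was found for 12 of 31 kinesin genes (38.7%) and for 20.2% of all 27025 genes, and in 17.9% of all 32851 windows. By role it was found for 6 of 9 spindle motors, 3 of 3 cytokinesis motors, 2 of 13 cargo motors and 1 of 6 ciliary motors. CCAAT was found for 14 of 31 genes (45.2%), near the 41.1% of all genes (37.4% of windows), and both motifs for 8 of 31 (25.8%) against 8.97% of all genes. A match describes the letters only and is not a site shown to be bound. Windows of 3 members that fell at the 2-cell stage with both compounds and of Kif11 and Kif2b, which did not, are printed 5′ to 3′ along the gene's strand, with motif matches in capitals.
Kif2c, chr4:117178723-117179022, minus strand: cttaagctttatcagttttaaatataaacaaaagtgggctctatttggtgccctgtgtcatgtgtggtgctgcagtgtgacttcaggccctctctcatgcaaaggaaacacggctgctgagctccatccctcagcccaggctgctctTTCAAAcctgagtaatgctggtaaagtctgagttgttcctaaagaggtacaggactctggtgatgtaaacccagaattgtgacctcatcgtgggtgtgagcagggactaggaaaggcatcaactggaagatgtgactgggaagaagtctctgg
Kif18b, chr11:102925075-102925374, minus strand: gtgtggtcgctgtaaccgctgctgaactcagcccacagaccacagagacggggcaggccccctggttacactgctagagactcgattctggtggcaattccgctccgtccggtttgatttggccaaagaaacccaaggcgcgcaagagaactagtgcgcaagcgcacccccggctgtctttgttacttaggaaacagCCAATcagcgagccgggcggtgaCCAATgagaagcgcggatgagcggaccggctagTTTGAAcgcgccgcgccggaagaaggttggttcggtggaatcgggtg
Kif22, chr7:127042371-127042670, minus strand: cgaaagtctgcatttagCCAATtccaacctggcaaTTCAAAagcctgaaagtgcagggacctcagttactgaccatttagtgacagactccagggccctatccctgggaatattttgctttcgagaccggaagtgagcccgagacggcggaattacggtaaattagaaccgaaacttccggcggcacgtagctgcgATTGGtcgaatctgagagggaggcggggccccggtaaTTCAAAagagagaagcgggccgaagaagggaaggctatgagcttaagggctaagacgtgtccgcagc
Kif11, chr19:37376132-37376431, plus strand: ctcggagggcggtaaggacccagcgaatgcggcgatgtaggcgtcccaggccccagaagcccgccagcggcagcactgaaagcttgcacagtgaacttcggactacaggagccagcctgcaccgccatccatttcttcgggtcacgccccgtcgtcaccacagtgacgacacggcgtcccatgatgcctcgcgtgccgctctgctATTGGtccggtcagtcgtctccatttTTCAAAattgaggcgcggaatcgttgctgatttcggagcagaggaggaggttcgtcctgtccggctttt
Kif2b, chr11:91577506-91577805, minus strand: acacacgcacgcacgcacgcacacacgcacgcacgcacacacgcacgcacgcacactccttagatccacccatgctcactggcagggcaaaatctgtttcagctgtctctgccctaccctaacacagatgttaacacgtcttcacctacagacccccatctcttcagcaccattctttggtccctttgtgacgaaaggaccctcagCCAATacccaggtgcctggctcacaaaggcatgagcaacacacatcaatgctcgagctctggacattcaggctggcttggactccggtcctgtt
Kif2c held 1 TTTGAA and 0 CCAAT, Kif18b 1 and 2, Kif22 2 and 2, Kif11 1 and 1, and Kif2b 0 and 1, so that Kif11 shared both motifs with Kif18b and Kif22.

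By the 4-cell stage, with T247, 1 of 12 tested spindle and cytokinesis motors was called, against 8 of 13 at the 2-cell stage, and most called members carried cargo. Of 35 members tested, 8 were called (22.9%), 5 higher and 3 lower, where 17.9% of all genes were called, 11.9% higher and 6.04% lower. The median LFC was −0.08 over the members and −0.02 over all genes tested, and −0.22 and −0.16 under 75th percentile scaling. Of all called genes, 66.3% were higher, or 52.3% under that scaling and 56% in the authors' matrix. Kif2c measured 11.82, 11.87 and 11.70 in controls and 11.27, 11.17 and 11.05 with T247, still below all controls, but with an LFC of −0.64 (adjusted p = 0.003897). Kif20a stood at 13.80, 13.56 and 13.96 against 12.95, 12.94 and 13.03 (−0.80, adjusted p = 6.479e-07), and Kif20b at 12.61, 12.55 and 12.67 against 12.01, 12.09 and 12.26 (−0.49, adjusted p = 0.0007155). These 3 genes kept the direction of the 2-cell stage without reaching the size required. Kif18b, at 10.85, 10.59 and 10.84 in controls, measured 10.85, 10.82 and 10.97 with T247, overlapping them, and its LFC of 0.12 turned to −0.03 when arrays were scaled to the 75th percentile. Kif22 overlapped as well, at 14.65, 14.53 and 14.52 against 14.49, 14.53 and 14.44. Of the 8 spindle motors tested, 6 were lower at an adjusted p under 0.05, for which no share over all genes was counted, and only Kif11 was called. It measured 8.41, 8.46 and 8.42 in controls and 7.61, 7.13 and 7.53 with T247 (−1.003, adjusted p = 0.007644), at the edge of the size required.

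Kif7, which shapes the tip of the primary cilium in Hedgehog signalling, had the largest rise at the 4-cell stage, from 5.18, 3.92 and 3.70 in controls, 1 of them well above background, to 6.03, 6.20 and 6.21 with T247 (1.88 ± 0.39, adjusted p = 0.0002711). Kif21a rose from 4.33, 3.47 and 4.17, none well above background, to 5.81, 6.01 and 5.42, a signal at least 3.00-fold higher (LFC 1.76, adjusted p = 5.497e-07). Neither overlapped. Kif3c measured 8.53, 8.78 and 8.70 in controls and 9.82, 9.94 and 9.78 with T247 (1.18, adjusted p = 0.001662). Kif5a stood at 5.52, 5.86 and 6.22 against 6.87, 7.12 and 6.61 (1.00, adjusted p = 0.001616). The endosome motor Kif16b was lower, at 9.23, 9.19 and 9.07 against 8.08, 7.86 and 8.51 (−1.02, adjusted p = 1.086e-05). Kif1a (LFC 1.48) and Kif13b (LFC −1.02) were called with overlapping arrays. In 6 fits that each left out an array, Kif7, Kif21a and Kif3c were called in all 6, Kif11 in 4, Kif5a and Kif16b in 3, and Kif1a and Kif13b in 2. Without T247 replicate 2 the called members at this stage numbered 3, and without control replicate 2 they numbered 4.

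Tests of the difference between stages addressed whether the response to a compound changed with development. With T247, between the 1-cell and 2-cell stages, 8 of 36 tested members (22.2%) differed in their response, 3 upwards and 5 downwards, where 17.8% of all genes did so, 4.53% upwards and 13.3% downwards. With MGCD0103 it was 9 of 35 (25.7%), 4 upwards and 5 downwards, beside 20.4% of all genes, 6.4% upwards and 14% downwards. Between the 2-cell and 4-cell stages with T247 it was also 9 of 35 (25.7%), 7 upwards and 2 downwards, beside 25.9%, 18.1% upwards and 7.77% downwards. Upward shares of these calls over all genes were 25.5%, 31.3% and 70%, and 49.4%, 48.9% and 45.9% under 75th percentile scaling. The calls include Kif1a with T247 and Kif5a with both compounds, which were below background on all 1-cell arrays. For Kif2c the response fell by 2.91 from the 1-cell to the 2-cell stage and was 2.15 higher again at the 4-cell stage.

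The inhibitors were compared directly at the same dose and times. At the 1-cell stage, 0 of 35 members were called by limma (2 at an unadjusted p under 0.05), where 0.228% of all genes were, 0.0272% higher and 0.201% lower with MGCD0103, and the 95% interval of the difference lay within an LFC of 1 in each direction for 27 of 35. At the 2-cell stage, 3 of 37 members (8.11%) were called, all higher with MGCD0103, where 6.8% of all genes were, 3.66% higher and 3.14% lower. Of all called genes 53.9% were higher with MGCD0103, or 28.8% under 75th percentile scaling. The intervals of 20 of 37 lay within 1, and 13 members were higher and 1 lower at an adjusted p under 0.05. The share of all genes at that p alone was not counted. All genes tested also leaned towards MGCD0103, with a median LFC of 0.23 beside 0.35 over the members. Under 75th percentile scaling these medians were 0.108 and 0.215. Kif11 had an MGCD0103 minus T247 difference of 1.54 (adjusted p = 0.0003386) with no overlap of the arrays. Kif9 had 1.61 (adjusted p = 0.00203), on 6.36, 8.72 and 6.19 with MGCD0103 against 5.49, 5.65 and 5.28, and 0.80 without the high array, MGCD0103 replicate 2. Kif13b was at least 1.33-fold higher (adjusted p = 0.003639), with 2 of 3 MGCD0103 arrays well above background.

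For the motors that fell with both, the compounds were close on Kif2c (0.06, 95% interval −0.30 to 0.41) and Kif20a (−0.03, −0.24 to 0.19). Kif22 was lower with MGCD0103 (−0.78, −1.13 to −0.44, adjusted p = 0.001046). Kif20b (0.64, 0.41 to 0.86, adjusted p = 0.000124), Kif23 (0.59, adjusted p = 0.0002258) and Kif18b (0.41, 0.15 to 0.67, adjusted p = 0.01489) were lower with T247. Kif17 (0.78, adjusted p = 0.001014) was lower with T247 too, and Kif21a (0.75, adjusted p = 0.01471) was higher with MGCD0103. Slide and compound cannot be told apart here either.

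Genes that work with these motors were read beside them, as a list of 18 spindle and midzone partners. At the 2-cell stage with T247, 4 of 18 partners were called lower and 1 higher (24.8% of all genes were called), with a median LFC of −0.70, beside −0.22 over all genes. The lower ones were Prc1 (−2.0), which bundles midzone microtubules and binds Kif4 and Kif14, Tpx2 (−1.33), a spindle assembly factor that binds Kif11 and Kif15, the mitotic kinase Plk1 (−1.15), which Kif20a docks at the midzone, and Nusap1 (−1.13), a microtubule bundling protein. Aurkb, the kinase of the passenger complex, was the higher one, and its signal was at least 1.70-fold higher. With MGCD0103, 1 of 18 partners was called lower (27.6% of all genes were), Prc1 (−1.02), and the median was 0.11, beside 0.08. At the 4-cell stage with T247, 1 of 18 was lower (17.9% of all genes were called), Ect2 (−1.22), a cytokinesis factor of the centralspindlin pathway, and the median was −0.28, beside −0.02. Nusap1 (1.32) and Ect2 (1.14) were called higher with MGCD0103 than with T247 at the 2-cell stage, 2 of 18 where 6.8% of all genes were. Of 9 other kinesins and light chains, 1 was called lower and 0 higher at the 2-cell stage with T247 (24.8% of all genes were called), with a median of −0.24. With MGCD0103, 2 were lower and 1 higher (27.6% of all genes were called), with a median of 0.01 and a largest fall of −1.71. Kifc1, the minus-end motor that focuses spindle poles, was called lower with both, T247 (−1.05) and MGCD0103 (−1.47).

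Markers of other stages and cell types also moved with the compounds. The 4 markers of the 2-cell embryo summed to 15.94 to 16.14 in 2-cell controls, 15.84 to 15.90 with T247 and 15.63 to 15.81 with MGCD0103, and to 12.49 to 12.82 in 4-cell controls and 13.27 to 13.74 with T247. At the 2-cell stage all 6 oocyte markers were well above background, and their sum was 17.46 to 17.55 in controls, 16.99 to 17.15 with T247 and 17.48 to 17.55 with MGCD0103. The 5 trophectoderm markers summed to 11.84 to 11.99 in controls, 12.98 to 13.10 with T247, and 13.11 to 13.26 with MGCD0103. The 3 inner cell mass markers, Nanog, Pou5f1 and Sox2, summed to 13.23 to 13.32 in 2-cell controls, 12.76 to 12.89 with T247 and 13.01 to 13.16 with MGCD0103, and to 11.76 to 12.03 in 4-cell controls and 10.21 to 10.51 with T247. The sums of the 8 cumulus and granulosa markers lay within the control range for both compounds at the 2-cell stage but did not overlap between T247 and MGCD0103, and all 8 were below background at the 4-cell stage with and without T247. The part of these markers in the kinesin differences was not tested.

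Across normal development, the share of kinesins called was largest at the 1-cell to 2-cell and the 2-cell to 4-cell steps, 55.6% at each. The same steps had the largest shares over all genes, 50.2% and 57.5%. Summed cumulus and granulosa markers fell from GV oocytes to the 4-cell stage, and their part in these steps was not tested. From GV to MII oocytes, 12 of 35 members were called lower and 0 higher (34.3%), where 45.5% of all genes were called, 0.442% higher and 45% lower. The median LFC was −0.58 over the members and −0.85 over all genes tested. Kif22 fell most, from 16.01, 16.11 and 16.24 in GV oocytes to 12.66, 12.35 and 12.41 in MII oocytes, an LFC of −3.65 ± 0.17 (adjusted p = 6.494e-18) and a 12.6-fold lower signal. Kif13a (−2.95), which carries mannose 6-phosphate receptor vesicles, and Kif1c (−2.78), which returns vesicles from Golgi to endoplasmic reticulum, came next. Kif2c (−1.90) and Kif18b (−1.83) fell too. In contrast, none of the 4 cytokinesis motors was called, with a median of −0.09. Kif20a measured 14.33, 14.27 and 14.30 in GV and 14.21, 14.08 and 14.16 in MII oocytes. This step depends on the scaling. Of all called genes, 0.973% were higher, against 58.9% when scaled to the 75th percentile. Scaled to the 75th percentile, the median of all genes was 0.44 and that of the members 0.73, so that members stood 0.27 above all genes in one scaling and 0.29 in the other, 5 of the 12 falls were still called, and Kif19a (−1.06), a motor that limits the length of cilia, turned to 0.25.

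From MII to the 1-cell stage, 7 of 35 members were called (20%), 6 higher and 1 lower, where 21.2% of all genes were, 16% higher and 5.21% lower. Upward calls made up 75.4% of all calls, or 47.9% under 75th percentile scaling. Kif26b (1.75), a kinesin without motor activity, Kif14 (1.49) and Kif1c (1.34) rose most, Kif18b rose by 1.16, and Kif26a (−1.14), a relative of Kif26b, was the one that fell.

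Between the 1-cell and 2-cell stages, 20 of 36 members were called (55.6%), 4 higher and 16 lower, where 50.2% of all genes were, 17.8% higher and 32.5% lower. The median was −0.94 over the members and −0.44 over all genes. Kif3a, the common heavy chain of kinesin-2, fell from 12.64, 13.06 and 12.73 to 9.72, 8.87 and 8.72, an LFC of −3.71 ± 0.16 (adjusted p = 3.419e-18) and a 13.1-fold lower signal. Kif13b (−3.37) and Kif19a (−3.24) followed. Of the division motors, Kif11 (−2.81), Kif23 (−2.57), Kif20b (−1.69), Kif15 (at least 2.85-fold lower, with no 2-cell control well above background), Kif18a and Kif4 (−1.24) were called lower, while Kif2c, Kif18b, Kif22 and Kif20a were not. Kif5a rose most, from 3.90, 3.30 and 3.42, none well above background, to 7.26, 8.33 and 8.07, a signal at least 11.8-fold higher (LFC 4.35, adjusted p = 1.873e-15). Kif3c (2.30) also rose, and Kif1a, below background at the 1-cell stage, was at least 1.52-fold higher with overlapping arrays. Kif7 was called higher too, with 1 array of 2 cells and 0 of 1 cell well above background.

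From the 2-cell to the 4-cell stage, 20 of 36 members were called (55.6%), 8 higher and 12 lower, where 57.5% of all genes were, 24.1% higher and 33.4% lower. Upward calls made up 41.9% of all calls, or 53.9% under 75th percentile scaling. The median was 0.07 over the members and −0.21 over all genes. Among the 8 spindle motors tested, 4 were called higher and 0 lower, with a median of 1.30, and among the 17 cargo motors 2 were higher and 9 lower. Kif11 (2.66), Kif15 and Kif22 (2.20) rose most, and Kif15 went from 4.33, 3.66 and 4.02, none well above background, to 6.29, 6.67 and 6.63, at least 5.61-fold higher (adjusted p = 4.269e-07). Kif2c rose by 1.79 ± 0.17 (adjusted p = 1.557e-10). The falls were largest for Kif26b (−3.76), Kif3b (−2.77), the partner chain of Kif3a, and Kif21a (−2.76), of which Kif26b and Kif21a were below background at the 4-cell stage and at least 3.93-fold and 6.01-fold lower. Kif5a, just risen, fell by 2.02 on the log2 scale. The same 20 members were called without control replicate 1 of the 2-cell stage.

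**Figure D4:**
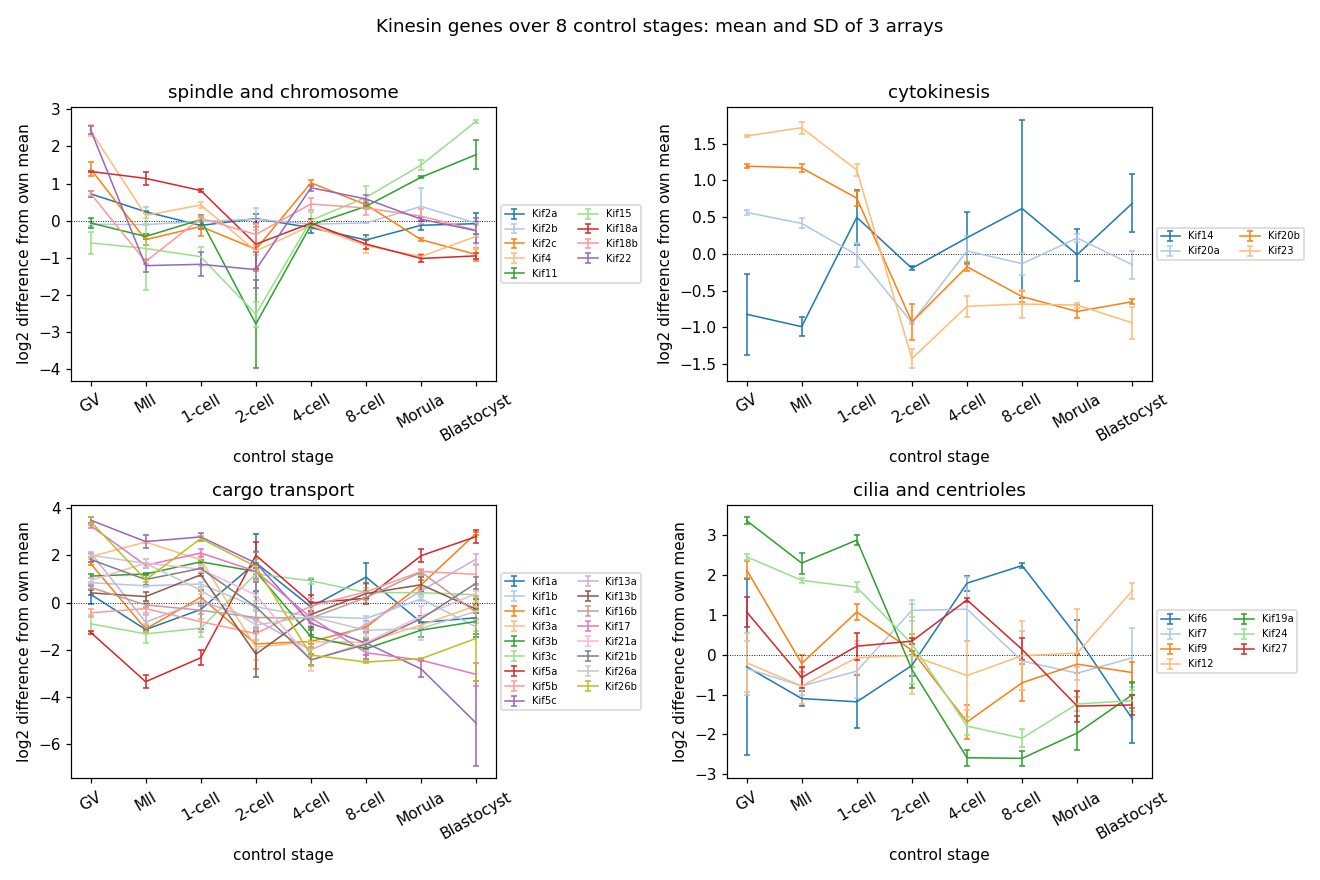
Log2 signal of the kinesins through 8 control stages, in 4 panels by role, each gene drawn relative to its own mean over these stages, with bars of 1 SD of 3 arrays. Kif11 and Kif15 dip at the 2-cell stage and climb to the blastocyst, and Kif5c has its lowest mean in the blastocyst.

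From the 4-cell to the 8-cell stage, 4 of 35 members were called (11.4%), 1 higher and 3 lower, where 15.1% of all genes were, 8.05% higher and 7.02% lower. Kif13a rose by 1.07 on the log2 scale, and Kif17 (−1.48) and Kif27 (−1.24), a ciliary relative of Kif7, fell. Kif7, below background at the 8-cell stage, was at least 1.05-fold lower. From the 8-cell stage to the morula, 10 of 35 were called (28.6%), 6 higher and 4 lower, beside 36.9% of all genes, 30.2% higher and 6.66% lower, whose calls were 82% upwards, or 51.1% under 75th percentile scaling. Kif5a (1.81), Kif1c (1.80) and Kif13a (1.44) rose most, and Kif6 (−1.79), a ciliary motor, and Kif27 (−1.42) fell. Kif1a had the largest called fall (−1.93), but its morula arrays were below background and no fold can be given. From morula to blastocyst, 10 of 35 were called, 5 higher and 5 lower, beside 27.7% of all genes, 19.9% higher and 7.77% lower, whose calls were 72% upwards, or 45.3% under that scaling. Kif1c (2.19), Kif12 (at least 1.14-fold higher) and Kif21b (1.51) rose most, while Kif5c (−2.31), Kif6 (at least 2.15-fold lower) and Kif16b (−1.72) fell most. Kif12 was well above background only in blastocysts among the control stages.

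The later stages separated some members from others. Kif5c, a conventional kinesin heavy chain, measured 13.13, 12.91 and 13.11 in GV oocytes, 8.84, 8.45 and 8.72 at the 4-cell stage and 2.34, 5.65 and 5.29 in blastocysts, where 2 of 3 arrays were well above background. Kif11 stood higher later on, from 8.41, 8.46 and 8.42 at the 4-cell stage to 10.28, 9.95 and 10.74 in blastocysts. Kif15 measured 9.18, 9.16 and 9.25 in blastocysts. Kif2c instead stood at 9.76, 9.77 and 10.09 in blastocysts, below its 3 arrays at the 4-cell stage. Steps between stages could be read within each of the 3 control slides. Of 83 called changes 82 had the same sign on all 3, the exception being Kif1a between the 1-cell and 2-cell stages. These changes were called on the same arrays, so the call itself largely set this agreement, which is no separate support. The stage of highest mean level was the GV oocyte for 18 of 37 members under quantile normalization and for 3 under 75th percentile scaling, so the place of the maximum depends on how arrays are brought to one scale.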

How the data were processed

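Each array was an Agilent mouse gene expression array (SurePrint G3) read in 1 colour. Per the labels the authors extracted the signals with Agilent Feature Extraction 9.5.1.1, while the file headers give 10.7.1.1, and the deposited values used are processed intensity, background-subtracted by that software. The deposited series matrix holds log2 values made by the authors and served as an alternative. One file, MGCD0103 replicate 1 at the 1-cell stage, had been re-saved with values of 3 significant digits.

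Control spots and outlier-flagged spots were left out, spots of a probe averaged, log2 taken and arrays brought together by smooth quantile normalization (window 0.05) over 55681 probes. With 3 arrays per condition, their number sets the precision. Current gene names came from RefSeq for 27235 probes by accession, 3581 by symbol and 565 by synonym, and 24300 probes had none. A gene was read from its brightest probe. limma 3.58.1 in R 4.3.3 was fitted to all 39 arrays without covariates, after tests on simulated data. A gene was tested where at least 1 of 3 arrays of each condition was positive and significant. Values on every array were given for Kif18b, Kif20a and Kif20b and for called members that did not overlap, at most 5 per direction, and in each stage step the 3 largest called rises and falls were named. Further genes given for their role were chosen after their values were seen. Members and lists were chosen with earlier results of these data known. Alternatives were another scaling, normexp background correction (offset 50), a mean of probes, the series matrix, the study's filter with fill-in, a replicate block and leaving out each array.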

Additional observations from a re-analysis of the deposited data

Results flagged for a closer look

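In 26 combinations of a kinesin, a compound and a stage step, the change against control differed by limma with Benjamini-Hochberg adjustment over all genes. Some kinesins appear at both T247 steps, which share their 2-cell arrays. From 1-cell to 2-cell, 22.2% of members differed with T247 (17.8% of all genes) and 25.7% with MGCD0103 (20.4%). From 2-cell to 4-cell with T247 it was 25.7% (25.9%). These shares stood near those of the array. These differences use the same control arrays as the comparisons above, so they are not independent of them. Each value is the LFC against control at the later stage minus that at the earlier stage.

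From the 1-cell to the 2-cell stage with T247, the response fell for Kif2c (−2.91), Kif18b (−1.89), Kif22 (−1.83), Kif17 (−1.06) and Kif20a (−1.03). It was higher at the later stage for Kif21a (1.16). Kif1a (2.27) and Kif5a (1.41) were called higher too, but at the 1-cell stage neither was well above background on any control or treated array, so that the response subtracted there was not measured and these values are no size of a change. With MGCD0103, it fell for Kif2c (−2.93), Kif22 (−2.54), Kif18b (−1.66), Kif3c (−1.35) and Kif20a (−1.12), and was higher for Kif21a (1.61), Kif11 (1.20) and Kif21b (1.09). The value of Kif5a (1.71) has the same limit as with T247.

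From the 2-cell to the 4-cell stage with T247, the response was higher for Kif2c (2.15), Kif17 (2.14), Kif18b (1.89), Kif9 (1.83), Kif7 (1.58), Kif27 (1.52) and Kif22 (1.32), and lower for Kif1c (−1.27) and Kif21b (−1.17). Kif7 was well above background on 1 of 3 control arrays at either stage.

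In the fits that each left out 1 array, Kif11 with MGCD0103 ranged from 0.74 to 1.88 and Kif21b from 0.71 to 1.68, lowest without 2-cell control replicate 2 and highest without replicate 1, and each lost its call in 7 of these fits. Kif7 lost its call in 4 and ranged from 1.30 to 2.04. Kif17, Kif1a and Kif20a with T247 from the 1-cell to the 2-cell stage, Kif3c with MGCD0103, and Kif1c and Kif21b with T247 from the 2-cell to the 4-cell stage lost theirs in 2, and Kif21a with T247 in 1. The others kept theirs in every such fit. Without 2-cell control replicate 1 the number of members that differed was 11 in place of 8 for T247 and 11 in place of 9 for MGCD0103 between the 1-cell and 2-cell stages, and 13 in place of 9 between the 2-cell and 4-cell stages.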

How the results depend on the processing

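Over all settings without a left-out array, 823 values for single genes kept their direction and side of the threshold, while 71 fell below it, 37 of them under normexp background correction. Counts of called kinesins that moved by over 1.5 times were these. With normexp they were 0 in place of 1 for T247 and 0 in place of 1 for MGCD0103 at the 1-cell stage, 7 in place of 13 for T247 at the 2-cell stage, 1 in place of 8 for T247 at the 4-cell stage, 0 in place of 3 between the compounds at the 2-cell stage, 2 in place of 7 from MII to 1-cell, 12 in place of 20 from 2-cell to 4-cell, 1 in place of 4 from 4-cell to 8-cell, 4 in place of 10 to the morula and 6 in place of 10 to the blastocyst. With the authors' matrix they were 8 for T247 at the 2-cell stage, 2 for T247 at the 4-cell stage, 5 in place of 8 for the T247 response from 1-cell to 2-cell, 13 in place of 20 from 1-cell to 2-cell, 13 from 2-cell to 4-cell, 6 to the morula and 6 to the blastocyst. The matrix holds only part of the called members, and each of those it holds was still called in these comparisons, except for 1 of 3 at the 4-cell stage. The mean of all probes gave 8 for T247 at the 2-cell stage and 2 from MII to 1-cell, the study's filter with fill-in 5 for T247 at the 4-cell stage, and the 75th percentile 2 for MGCD0103 at the 1-cell stage and 3 in place of 18 members highest in GV oocytes. For settings other than the matrix the cause was not tested. Leaving out an array gave 1 to 2 for MGCD0103 at the 1-cell stage, the latter without control replicate 2 or MGCD0103 replicate 1, and 3 to 10 for T247 at the 4-cell stage.

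Kif18b with T247 at the 4-cell stage turned from 0.12 to −0.032 under the 75th percentile, and Kif20a between the compounds at the 2-cell stage from −0.026 to 0.044 without MGCD0103 replicate 3, over a range of −0.073 to 0.044 when arrays were left out. Deviations of same-numbered treated and control arrays from their group means had correlations of −0.11 to 0.14. Same-numbered control arrays, which share a slide, had a mean of only 0.056 (−0.008 to 0.185). These ranges overlap, so the check could not decide whether the numbers pair treated and control arrays. A replicate block moved no count by over 1.5 times. The control arrays alone with that block gave 18 called members in place of 20 from 1-cell to 2-cell. Low signal limits Kif12 and Kif7, well above background on all arrays in 1 of 13 conditions each, Kif2b and Kif1a in 2, Kif6 in 6, Kif26b in 8, Kif5a in 9, Kif13b and Kif15 in 10, Kif21a in 11 and Kif26a, Kif27, Kif3b and Kif5c in 12.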
